A study of Mus musculus with 9 samples.

Results

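The enzymes described here make serine and carry its carbon through the folate cycle, and they were measured in the submandibular gland (SMG) of male mice. The 10 genes were taken by name, by a rule that uses no measured value but was written with earlier results of these data known: Phgdh, Psat1 and Psph of serine synthesis, Shmt2, Mthfd2, Mthfd1l and Aldh1l2 of the mitochondrial folate pathway, and Shmt1, Mthfd1 and Aldh1l1 of the cytosolic folate pathway. All 10 were among the 17562 genes of the authors' scaled table, and all 10 were among the 13842 genes that passed the filter on low counts used for testing. RNA sequencing covered 4 WT glands and 5 glands of Hs3st3a1;Hs3st3b1 double knockout (DKO) mice. These paralogous genes encode enzymes that place 3-O-sulfate groups on heparan sulfate. Per the study's methods the mice were adult and the knockout was constitutive, with a frameshift deletion in exon 1 of Hs3st3a1 made on a chromosome that already carried an Hs3st3b1 knockout allele, so the change was present in every cell type of the DKO gland. The labels give no age or founder line and do not say which glands came from littermates, so p-values measure the spread between these glands.

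Serine is built in the cytosol from a glycolytic intermediate. PHGDH oxidises 3-phosphoglycerate, PSAT1 transfers an amino group from glutamate, and PSPH removes the phosphate. Serine hydroxymethyltransferases then move a carbon unit from serine to tetrahydrofolate and leave glycine, through SHMT2 in mitochondria and SHMT1 in the cytosol. Mitochondrial MTHFD2 and MTHFD1L oxidise that unit and release it as formate, while the cytosolic protein MTHFD1 holds the matching activities in a single chain and uses the formate for purine and thymidylate synthesis. ALDH1L2 and ALDH1L1 oxidise formyltetrahydrofolate to carbon dioxide in mitochondria and cytosol, with NADPH as a product. In secretory glands these reactions supply glycine and serine for protein synthesis and sit beside the amino acid response, in which ATF4 activates serine synthesis and amino acid transport genes.

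Values are given as CPM (counts per 1e6 reads), the deposited read counts divided by library size after TMM (trimmed mean of M values) scaling. Library totals ran from 20653492 to 37870519 counts in WT and from 17053747 to 34683690 in DKO. Hs3st3a1 had 3 to 14 counts in the WT libraries and 0 in all 5 DKO libraries, and Hs3st3b1 had 67 to 216 counts in WT and 7 to 45 in DKO. Which part of Hs3st3b1 those reads cover cannot be told from counts per gene. The libraries carried the acinar and duct markers of an SMG. The summed level of 10 acinar genes was 197718 to 294442 CPM in WT and 307422 to 546530 CPM in DKO, while that of 10 granular duct genes, including Egf, was 46883 to 92221 CPM in WT and 17092 to 38436 CPM in DKO. Myoepithelial markers summed to 722 to 1152 CPM in WT and 282 to 642 CPM in DKO. In such bulk tissue fewer cells of a type and less RNA per cell cannot be told apart. DKO replicate 1 also held 8094 CPM of parotid gland markers. The parotid sum was 24.4 to 48.4 CPM in WT and 57.4 to 92.6 CPM in DKO replicates 2 to 5, so these too did not overlap. Without DKO replicate 1 the log2 difference was 1.88 for Psat1 and 1.20 for Aldh1l2, close to the values with it given below. The adjusted p-values were then 0.0833 and 0.0823 (edgeR).

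The serine synthesis genes and the mitochondrial folate genes were higher on average in DKO than in WT glands, and the cytosolic folate genes were near equal. The median log2 difference between DKO and WT was 0.97 over the 3 serine genes, 0.73 over the 4 mitochondrial folate genes and -0.06 over the 3 cytosolic folate genes, beside 0.01 over all tested genes. Of the 10 genes, 8 were higher in DKO, beside 52.5% of all tested genes. Genes were called at an adjusted p under 0.05 in a quasi-likelihood fit of genotype by edgeR, with p-values adjusted over all tested genes by the Benjamini-Hochberg procedure. Psat1 and Aldh1l2 rose and no member fell. That is 2 of 10 members called higher, where 0.166% of all tested genes were called higher, 0.462% lower and 0.629% in either direction. At an unadjusted p under 0.05, 6 of 10 members were higher, where 6.89% of all tested genes were. DESeq2, the tool named in the study's methods, called 5 of the 10 higher, adding Phgdh, Psph and Shmt2, where it called 1.77% of all tested genes higher and 4.45% in either direction.

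**Figure D1:**
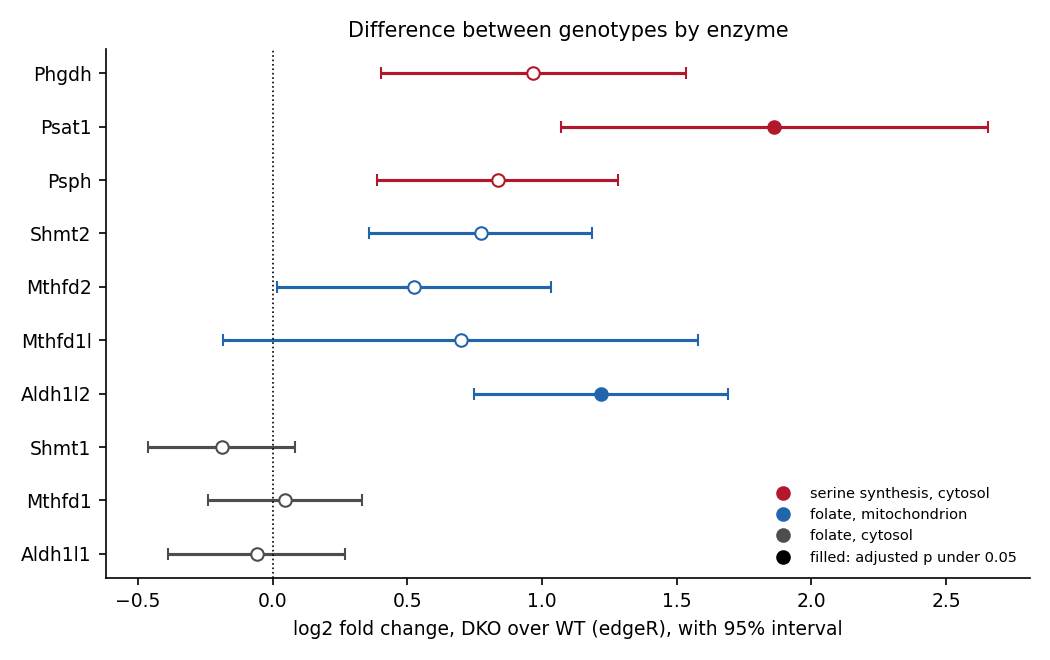
The log2 fold change of DKO over WT (horizontal axis) is shown for each of the 10 enzymes with its 95% interval from edgeR. Red marks serine synthesis, blue mitochondrial folate and grey cytosolic folate enzymes, and filled points mark the 2 genes, Psat1 and Aldh1l2, with an adjusted p under 0.05. The 3 cytosolic folate enzymes sit between -0.19 and 0.05.

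Psat1 (ENSMUSG00000024640, GRCm38 chromosome 19, 15904678 to 15947337, minus strand), the aminotransferase of serine synthesis, showed the largest difference among the members. Its level was 10.9, 20.6, 15.1 and 10.2 CPM in WT replicates 1 to 4 and 48.8, 47.4, 73.7, 17.9 and 71.5 CPM in DKO replicates 1 to 5. DKO replicate 4 lay inside the WT range, below WT replicate 2, and the other 4 DKO libraries lay above every WT library. The mean went from 14.2 ± 4.77 CPM in the 4 WT libraries to 51.9 ± 22.6 CPM in the 5 DKO libraries (± SD), a 3.64-fold difference. This log2 fold change of 1.86 (SE 0.36) passed the test with an adjusted p of 0.0478 (edgeR). Leaving out WT replicate 1, 3 or 4 or DKO replicate 1, 2, 3 or 5 moved the adjusted p above 0.05, to at most 0.199. Leaving out WT replicate 2 or DKO replicate 4 lowered it to 0.0291 and 0.0137. The log2 fold change stayed between 1.70 and 2.09 whichever single library was left out.

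Phgdh (ENSMUSG00000053398, chromosome 3, 98313170 to 98339990, minus strand), the dehydrogenase that opens the pathway, was the most abundant of the 3 serine genes. It measured 47.2, 90.6, 52.1 and 56.0 CPM in WT and 97.1, 149, 140.4, 66.3 and 148 CPM in DKO. Again 4 of 5 DKO libraries exceeded every WT library and DKO replicate 4 did not. Mean Phgdh was 61.5 ± 19.7 CPM for WT and 120.3 ± 37.0 CPM for DKO (SD, n = 4 and 5), with a log2 fold change of 0.97 (SE 0.26). It passed the threshold by DESeq2 (adjusted p = 0.0073) and not by edgeR (adjusted p = 0.0986).

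Psph (ENSMUSG00000029446, chromosome 5, 129765558 to 129787449, minus strand), the phosphatase of the last step, was measured at 9.50, 10.8, 8.10 and 9.56 CPM in WT and 15.9, 19.1, 17.1, 9.87 and 22.9 CPM in DKO. The WT libraries lay close together, and DKO replicate 4 was the single DKO library among them. From WT to DKO the log2 fold change was 0.84 (SE 0.20), from 9.49 ± 1.11 to 16.97 ± 4.77 CPM (SD, n = 4 and 5), with adjusted p-values of 0.0751 by edgeR and 0.0055 by DESeq2. Psph shares 452 exonic bases (10.4% of its exon length) with Cct6a on the opposite strand, and the library kit does not mark strand. Cct6a, a chaperonin subunit gene, was at 70.4 CPM in WT and 59.1 CPM in DKO, the opposite direction to Psph.

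**Figure D2:**
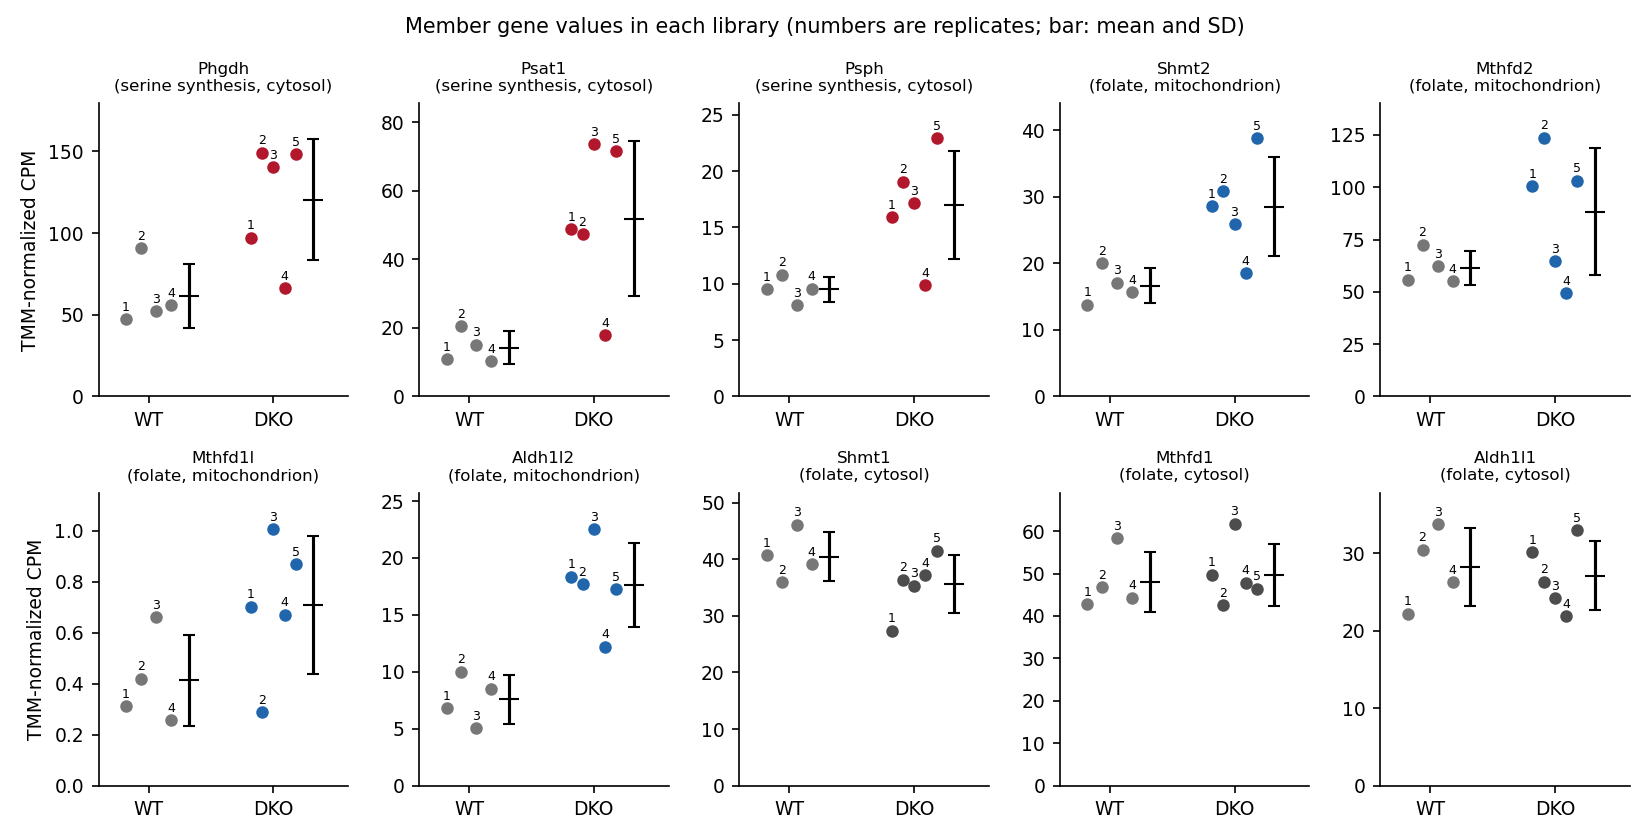
Each panel gives TMM-normalized CPM (vertical axis, from 0) of a member gene in 4 WT and 5 DKO libraries. Points are libraries numbered by replicate, and the bar at the side of each group is the mean with its SD. In the panels of Phgdh, Psat1, Psph, Shmt2, Mthfd2 and Aldh1l2, replicate 4 is the lowest DKO point and replicate 2 the highest WT point.

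The promoter sequences of the entry step, of the member with the largest fold change and of the mitochondrial entry to the folate pathway are shown because these genes moved together across the libraries. Each line gives the 250 bases before the RefSeq transcript start on GRCm38.p6, read 5′ to 3′ on the gene's strand (for Psat1 the more upstream of 2 listed starts), with capitals marking the antioxidant response element core TGACNNNGC on either strand.
Phgdh, chr3:98339970-98340219, minus strand: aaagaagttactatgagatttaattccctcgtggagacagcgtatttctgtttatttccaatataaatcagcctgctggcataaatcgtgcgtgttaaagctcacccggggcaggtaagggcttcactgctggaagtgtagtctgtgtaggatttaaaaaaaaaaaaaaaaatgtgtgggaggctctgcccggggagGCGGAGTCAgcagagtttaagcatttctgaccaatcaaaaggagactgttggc
Psat1, chr19:15925060-15925309, minus strand: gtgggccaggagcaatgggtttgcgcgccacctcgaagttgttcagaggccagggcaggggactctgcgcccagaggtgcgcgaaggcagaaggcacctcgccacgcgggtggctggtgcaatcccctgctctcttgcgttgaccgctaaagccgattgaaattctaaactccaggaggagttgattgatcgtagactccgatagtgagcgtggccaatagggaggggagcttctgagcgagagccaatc
Shmt2, chr10:127522445-127522694, minus strand: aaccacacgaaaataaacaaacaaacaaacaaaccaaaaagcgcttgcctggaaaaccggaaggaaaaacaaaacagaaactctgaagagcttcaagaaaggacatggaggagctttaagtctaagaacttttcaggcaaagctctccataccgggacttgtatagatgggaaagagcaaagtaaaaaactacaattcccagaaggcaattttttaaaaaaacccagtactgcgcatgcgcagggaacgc

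The Phgdh and Shmt2 stretches held 44.0% and 40.8% G and C, below the median of 52.4% over all promoters, and Psat1 held 59.6%. Windows from 250 bases before to 50 after the start were searched on both strands in 10 windows of 9 member genes and in all 32851 promoters of the table. TGATGNAA, the core of the response element bound by C/EBP and ATF factors, was in 3.97% of all promoters and in 0 of the 10 member windows. CACGTG, the E-box, was in 7.15% of all promoters and in 0 member windows. TGACNNNGC was in 12.4% of all promoters and in 2 member windows, those of Phgdh and Psph. No match says only that these letters are not in these windows.

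Among the mitochondrial folate genes, Aldh1l2 (ENSMUSG00000020256, chromosome 10, 83487450 to 83534140, minus strand), the mitochondrial formyltetrahydrofolate dehydrogenase, was the only member whose groups did not overlap. It measured 6.78, 10.01, 5.03 and 8.53 CPM in WT and 18.4, 17.7, 22.5, 12.2 and 17.2 CPM in DKO. All 5 DKO libraries, DKO replicate 4 included, lay above all 4 WT libraries, a pattern seen in 2.49% of all tested genes, while 3.51% had all DKO libraries below all WT libraries. Mean Aldh1l2 was 7.59 ± 2.16 CPM for WT and 17.6 ± 3.68 CPM for DKO (SD, n = 4 and 5), a 2.33-fold difference. On the log2 scale this was 1.22 (SE 0.22), with an adjusted p of 0.0478 (edgeR). As for Psat1, leaving out any library other than WT replicate 2 or DKO replicate 4 raised the adjusted p above 0.05, to between 0.0521 and 0.198, with a log2 fold change of 1.06 to 1.38 over the 9 single-library omissions. Aldh1l2 shares 1056 exonic bases (14.1% of its exon length) with Nopchap1 on the opposite strand. Nopchap1 was at 6.66 CPM in WT and 8.61 CPM in DKO, a log2 difference of 0.37.

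Shmt2 (ENSMUSG00000025403, chromosome 10, 127517123 to 127522444, minus strand), the mitochondrial serine hydroxymethyltransferase, measured 13.8, 20.1, 17.1 and 15.7 CPM in WT and 28.6, 30.9, 25.9, 18.5 and 38.8 CPM in DKO. Only DKO replicate 4 fell within the WT range. Shmt2 differed by 0.77 on the log2 scale (SE 0.19), from 16.7 ± 2.64 to 28.5 ± 7.39 CPM (SD, n = 4 and 5), with adjusted p-values of 0.0772 by edgeR and 0.0061 by DESeq2.

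Mthfd2 (ENSMUSG00000005667, chromosome 6, 83305691 to 83325908, minus strand), the mitochondrial methylenetetrahydrofolate dehydrogenase and cyclohydrolase, measured 55.7, 72.6, 62.2 and 55.1 CPM in WT and 100.7, 124, 64.6, 49.5 and 103 CPM in DKO. The DKO libraries were spread on both sides of the WT range, with 3 above it, 1 inside it and DKO replicate 4 below it. Its log2 fold change of 0.52 (SE 0.23) did not pass, with an adjusted p of 0.328 by edgeR and 0.237 by DESeq2. Mthfd1l (ENSMUSG00000040675, chromosome 10, 3973118 to 4167081, plus strand), the mitochondrial formyltetrahydrofolate synthetase, had only 6 to 30 counts per library. Its mean was 0.413 ± 0.179 CPM for WT and 0.708 ± 0.271 CPM for DKO (SD, n = 4 and 5). The 95% interval of its log2 difference ran from -0.18 to 1.58, so no difference was detected with these counts and glands.

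The cytosolic folate genes overlapped between genotypes. Shmt1 (ENSMUSG00000020534, chromosome 11, 60788104 to 60811718, minus strand), the cytosolic serine hydroxymethyltransferase, measured 40.7, 35.9, 46.1 and 39.1 CPM in WT and 27.4, 36.4, 35.3, 37.2 and 41.5 CPM in DKO. Its lowest library was DKO replicate 1 and its highest WT replicate 3. The log2 difference was -0.19 (SE 0.13, 95% interval -0.46 to 0.08), with an adjusted p of 0.555 by edgeR.

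Mthfd1 (ENSMUSG00000021048, chromosome 12, 76255298 to 76319803, plus strand), the cytosolic protein that both makes and uses formyltetrahydrofolate, was at 48.1 ± 7.01 CPM for WT and 49.6 ± 7.27 CPM for DKO (SD, n = 4 and 5). Its log2 difference was 0.05, with a 95% interval of -0.24 to 0.33. Aldh1l1 (ENSMUSG00000030088, chromosome 6, 90486427 to 90600203, plus strand), the cytosolic formyltetrahydrofolate dehydrogenase, was at 28.2 ± 5.04 CPM for WT and 27.1 ± 4.48 CPM for DKO (SD, n = 4 and 5). Its log2 difference was -0.06, with a 95% interval of -0.39 to 0.27. The sign of both differences changed when some single libraries were left out, and an interval of this width leaves room for modest differences in either direction.

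Per kilobase of exon, Phgdh had the highest mean of the 10 genes in both genotypes, with a mean of 24.7 CPM per kb in WT and 48.4 in DKO. In WT it was followed by Mthfd2 at 17.6, Mthfd1 at 10.8, Shmt1 at 10.4, Aldh1l1 at 6.24, Shmt2 at 5.36, Psat1 at 3.34, Psph at 2.19, Aldh1l2 at 1.01 and Mthfd1l at 0.0931 CPM per kb. In WT the neighbours Phgdh and Mthfd2, Mthfd1 and Shmt1, and Aldh1l1 and Shmt2 differed by less than the larger SD of each pair. In DKO Psat1 stood at 12.2 CPM per kb, in the range of Mthfd1 at 11.2, Shmt2 at 9.17 and Shmt1 at 9.16. Mthfd2 was at 25.3, Aldh1l1 at 6.01, Psph at 3.92, Aldh1l2 at 2.35 and Mthfd1l at 0.160 CPM per kb.

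The contrast between compartments was also read inside each library, where it needs no scaling between libraries. For each pair the log2 ratio of the mitochondrial to the cytosolic gene's counts was taken in each library. It was compared between genotypes by a two-sided exact permutation test over every split of the 9 libraries. The smallest p this test can give is 0.0159, and p-values were adjusted by Benjamini-Hochberg over the 3 pairs. The Aldh1l2 to Aldh1l1 ratio was 1.29 log2 units higher in DKO, at -1.92 ± 0.55 in WT and -0.63 ± 0.33 in DKO (SD, n = 4 and 5; exact permutation p = 0.0159, adjusted 0.0476). All 5 DKO libraries exceeded all WT libraries, which gives the smallest p the test allows. Scaled by exon length, Aldh1l2 made up 15.5, 16.5, 8.22 and 16.3% of the pair in WT and 26.8, 28.8, 35.9, 25.1 and 23.9% in DKO.

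The Shmt2 to Shmt1 ratio was 0.94 log2 units higher in DKO, at -1.29 ± 0.31 in WT and -0.35 ± 0.42 in DKO (SD, n = 4 and 5; exact permutation p = 0.0317, adjusted 0.0476). Shmt2 made up 29.7, 41.1, 31.6 and 33.4% of the length-scaled reads of the pair in WT and 56.6, 51.5, 47.8, 38.3 and 53.8% in DKO. DKO replicate 4 was again the library inside the WT range, below WT replicate 2. With 1 of WT replicates 1, 3 and 4 or of DKO replicates 1, 2, 3 and 5 left out, the exact permutation p was 0.0571 or 0.0714, with a difference of 0.84 to 0.97. The Mthfd1l to Mthfd1 ratio was 0.69 log2 units higher in DKO (exact permutation p = 0.0952, adjusted 0.0952, n = 4 and 5), with 4 of 5 DKO libraries above all WT libraries. DKO replicate 2, with 7 counts of Mthfd1l, was the exception, and without it the difference was 0.92 (exact permutation p = 0.0286, unadjusted). With no overlap left, that p is the smallest the remaining libraries allow. Leaving out any other single library gave a difference of 0.54 to 0.83 (exact permutation p = 0.107 to 0.214, unadjusted). Mthfd1l made up 0.830 ± 0.235% of its pair in WT and 1.38 ± 0.437% in DKO (SD, n = 4 and 5).

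**Figure D3:**
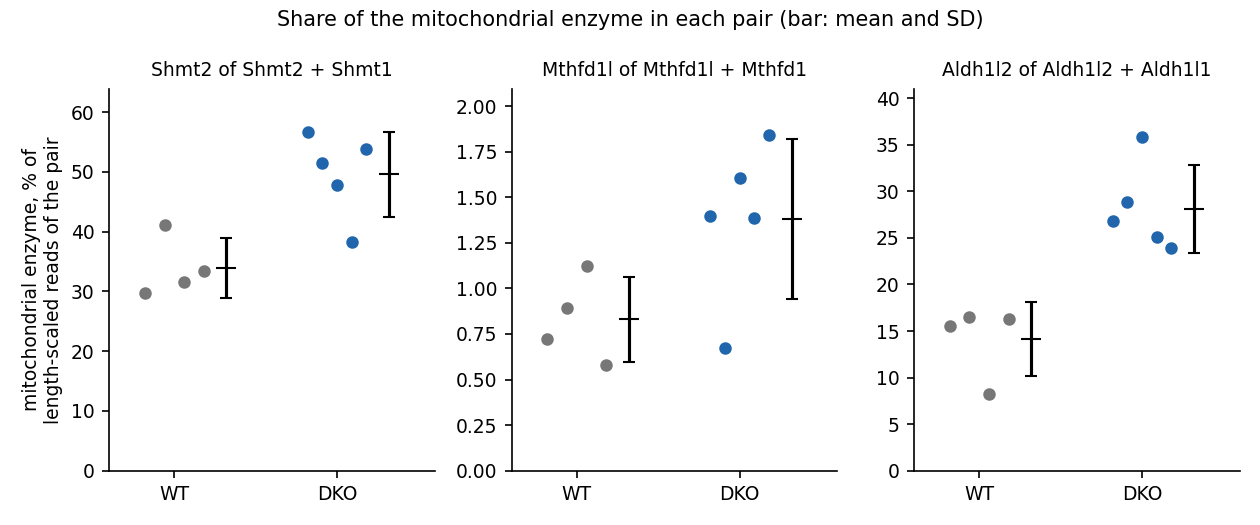
The share of length-scaled reads that came from the mitochondrial enzyme of each pair (vertical axis, percent, from 0; scales differ between panels) is shown for 4 WT and 5 DKO libraries as points, with the mean and SD beside them. The Aldh1l2 share was 14.1 ± 3.97% in WT and 28.1 ± 4.72% in DKO with no overlap, and the Shmt2 share was 34.0 ± 4.99% and 49.6 ± 7.10% with DKO replicate 4 inside the WT range.

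Inside each genotype the same 2 libraries stood out. For the 6 members with an unadjusted p under 0.05 between genotypes (Phgdh, Psat1, Psph, Shmt2, Mthfd2 and Aldh1l2), DKO replicate 4 was the lowest DKO library in 6 of 6 genes and WT replicate 2 the highest WT library in 6 of 6. The share of all tested genes with this order was not computed, so the order cannot be called particular to these genes. Over the 9 libraries the 15 pairs among these genes had Pearson correlations of log2 CPM from 0.58 to 0.95, and from 0.33 to 0.87 with a median of 0.76 after each genotype was centred on its own mean. The order was not shared by Mthfd1l, whose lowest DKO library was replicate 2, whose highest WT library was replicate 3 and whose centred coefficients with the 6 genes ran from -0.31 to 0.38. Cytosolic Aldh1l1 also had its lowest DKO value in replicate 4, with a centred coefficient of 0.82 with Shmt2 and 0.62 with Psat1. These coefficients are descriptions that share libraries and scaling. The 6 genes were picked by a difference in the same direction, which by itself favours positive coefficients over the 9 libraries.

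**Figure D4:**
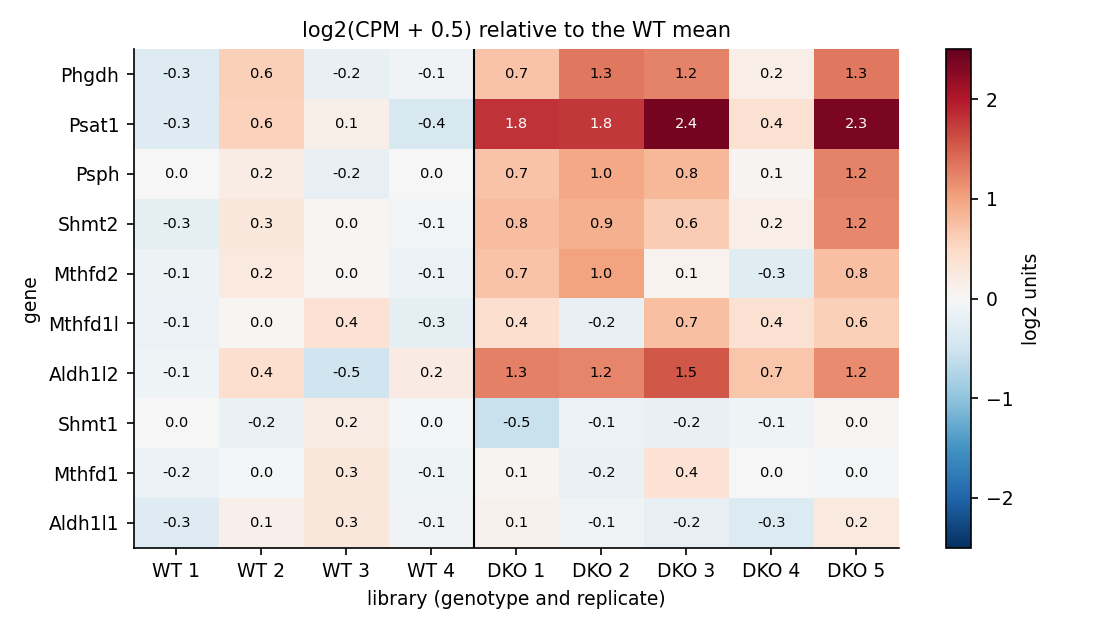
Each cell is the log2(CPM + 0.5) of a gene (rows) in a library (columns) minus the WT mean of that gene, from blue (lower) to red (higher). The columns of DKO replicates 1, 2, 3 and 5 are red for Phgdh, Psat1, Psph, Shmt2 and Aldh1l2, the column of DKO replicate 4 is paler in those rows, and the rows of Shmt1, Mthfd1 and Aldh1l1 stay pale.

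The same 2 libraries were nearest to the other genotype on the axis of largest variance over all tested genes (first principal component, 35.1%). WT replicate 2 was at -6.47 and DKO replicate 4 at -6.69. The other WT libraries were at -30.4 to -16.0 and the other DKO libraries at 4.95 to 39.8. These 2 libraries were also nearest in the summed levels of acinar, granular duct and myoepithelial markers. DKO replicate 4 had the lowest acinar sum of the DKO libraries, 307422 CPM, and the highest granular duct and myoepithelial sums, 38436 and 642 CPM. WT replicate 2 had the highest acinar sum of the WT libraries, 294442 CPM, and the lowest granular duct and myoepithelial sums, 46883 and 722 CPM. The acinar order depended on the measure: by the mean of log2 values over the list, which weights genes equally, DKO replicate 3 was the lowest DKO library (0.48 above the WT mean, against 0.57 for replicate 4) and WT replicate 3 the highest WT library (0.18, against 0.12 for replicate 2). For the granular duct and myoepithelial lists that mean gave the same order as the sums. In DKO replicate 4, 59.4% of the counts came from its 20 most abundant genes, against 64.0 to 70.3% in the other DKO libraries. Each of the 9 tested acinar markers was higher in DKO (median 0.64 on the log2 scale, 0 called by edgeR and 3 by DESeq2), while 9 of 10 granular duct markers were lower (median -1.92, 0 called by edgeR and 8 called lower by DESeq2). The other, Klk1, was 0.58 higher and called by DESeq2. Klk1 and most of the lower granular duct markers belong to a family of near-identical kallikrein genes whose reads may be shared. These markers may thus not be separate measures. Of 8 myoepithelial markers all were lower and 5 were called lower by edgeR, with a median of -1.08. Their part in the enzyme results was not tested. Without DKO replicate 4, edgeR called 5 of the 10 members higher (Phgdh, Psat1, Psph, Shmt2 and Aldh1l2), where it called 1.16% of all tested genes higher.

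Markers of other cells the gland could hold gave few calls by edgeR. The 6 fibroblast genes were all lower in DKO (median -0.72), the 4 tested leukocyte genes were all lower (median -0.23), and 4 of 5 endothelial genes were higher (median 0.27), with none of the 15 called. Of 8 striated and intercalated duct genes 6 were lower, with a median of -0.12, and DESeq2 called Krt7 (-0.47) and Krt19 (-1.13) lower. Liver markers summed to 18.7 to 31.3 CPM in WT and 33.6 to 59.7 CPM in DKO without overlap, and the 1 tested gene, Ttr, differed by 0.79 and was called higher by DESeq2. Adipocyte, skeletal muscle and sublingual markers summed to at most 7.85 CPM in any library, with 1 skeletal muscle gene, Acta1, called lower by edgeR. Klk1, Krt7, Krt19, Ttr and Acta1 were named after their values were seen.

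Outside the members, 10 lists of neighbouring genes held 106 genes, of which 94 were tested. Their median log2 difference was 0.08, and edgeR called 1 higher and 1 lower, while DESeq2 called 9 higher and 4 lower. The gene that rose was Sardh, which encodes mitochondrial sarcosine dehydrogenase, an enzyme that also passes a carbon unit to folate. Sardh was at 10.5, 18.4, 13.8 and 13.8 CPM in WT and 26.5, 36.1, 46.7, 20.5 and 37.5 CPM in DKO. All DKO libraries were above all WT libraries, as in 2.49% of all tested genes, and DKO replicate 4 and WT replicate 2 were again the nearest. Its log2 fold change was 1.24 (SE 0.23; 14.1 ± 3.24 to 33.5 ± 10.2 CPM), with an adjusted p of 0.0478 by edgeR. Sardh was 1 of 3 tested genes of choline and sarcosine oxidation, all higher, with a median of 0.40. Aldh7a1, the betaine aldehyde dehydrogenase of the list, had a log2 difference of 0.40 (adjusted p = 0.182 by edgeR).

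The gene that fell was Sfxn3, a mitochondrial serine carrier of the sideroflexin family. It measured 33.4, 17.7, 42.4 and 21.9 CPM in WT and 12.4, 12.9, 12.9, 14.1 and 12.5 CPM in DKO. All DKO libraries were below all WT libraries, as in 3.51% of all tested genes. The DKO values lay within a narrow band, while the WT values varied widely. Its log2 fold change was -1.16 (SE 0.21), with an adjusted p of 0.0478 by edgeR. Among the 13 tested genes of serine and glycine transport and use, 7 were higher and 6 lower. Slc38a1, a neutral amino acid transporter, was at 10.4 ± 2.60 CPM for WT and 20.6 ± 7.91 CPM for DKO (SD, n = 4 and 5). All DKO libraries were above all WT libraries, as in 2.49% of all tested genes. The Slc38a1 log2 difference of 0.99 had an adjusted p of 0.0904 by edgeR and 0.0073 by DESeq2. Leaving out single libraries ended the Sardh and Sfxn3 calls as it did those of the members, and 0 to 11 of the 94 genes were called over the 9 omissions.

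In folate transport and interconversion, 10 of 12 tested genes were higher in DKO, with a median of 0.21, and DESeq2 called 1 higher and 1 lower. The lower call was Mtfmt, the mitochondrial methionyl-tRNA formyltransferase, named after its value was seen (log2 difference -0.45, adjusted p = 0.0793 by edgeR and 0.0215 by DESeq2). Folr1, a folate receptor, was at 20.02 ± 6.30 CPM for WT and 42.8 ± 13.6 CPM for DKO (SD, n = 4 and 5). Its log2 difference of 1.09 (SE 0.26) had an adjusted p of 0.0669 by edgeR and 0.0018 by DESeq2. Slc19a1, the reduced folate carrier, had a log2 difference of 0.48 (adjusted p = 0.198 by edgeR). The glycine cleavage system breaks glycine down in mitochondria, and its Amt and Gcsh genes differed by 0.10 and 0.12 on the log2 scale. Amt was at 304 ± 4.96 CPM in WT, yet Gldc, the decarboxylase of the same complex, had 3 counts in all 9 libraries together, with at most 2 in any library. Gldc was named after its values were seen.

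Genes of proline and asparagine synthesis, which share regulation by the amino acid response with serine synthesis, had the highest list median, 0.70, with 5 of 5 higher in DKO, 0 called by edgeR and 3 by DESeq2. Asns, asparagine synthetase, was at 361, 580.5, 325 and 381 CPM in WT and 805, 971, 883, 420.4 and 938 CPM in DKO. DKO replicate 4 was once more the only DKO library inside the WT range, and WT replicate 2 was the highest WT library. Asns differed by 0.96 on the log2 scale (SE 0.25), with adjusted p-values of 0.0879 by edgeR and 0.0037 by DESeq2. Aldh18a1, which opens proline synthesis, had a log2 difference of 0.86 (adjusted p = 0.138 by edgeR).

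Of 11 tested regulators of the pathway 8 were higher, with a median of 0.26 and none called by edgeR or DESeq2. Trib3, a target and inhibitor of ATF4, ran from 2.49 to 10.4 CPM in WT and from 4.07 to 22.5 CPM in DKO, with a log2 difference of 1.29 (SE 0.51, adjusted p = 0.268 by edgeR). Atf5 had a log2 difference of 0.60 (adjusted p = 0.420 by edgeR). Atf4 itself, named after its value was seen, was at 78.7 ± 10.3 CPM for WT and 102.9 ± 25.5 CPM for DKO (SD, n = 4 and 5; log2 difference 0.39, adjusted p = 0.328 by edgeR).

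No gene of the remaining lists was called by edgeR. In the methionine cycle and transsulfuration 7 of 10 tested genes were higher, with a median of 0.17, with values from -0.79 to 1.03. The largest was Cth (1.03, adjusted p = 0.302 by edgeR), followed by Gnmt (0.82, adjusted p = 0.138 by edgeR and 0.0276 by DESeq2). In purine synthesis, which consumes formyltetrahydrofolate, 5 of 6 were higher with a median of 0.07, and Pfas and Ppat differed by 0.28 and 0.27. In glycolysis, which supplies the precursor of serine, 10 of 13 were lower with a median of -0.10. Pfkm, a phosphofructokinase subunit, differed by -0.49 (adjusted p = 0.0839 by edgeR, 0.0156 by DESeq2), and Pfkl differed by -0.47. For Pfkm all DKO libraries were below all WT libraries, as in 3.51% of all tested genes. As a measure of mitochondrial genes at large, 18 general mitochondrial proteins had a median of 0.03, a range of -0.19 to 0.26 with Polg and Hspa9 highest, and 0 called.

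**Figure D5:**
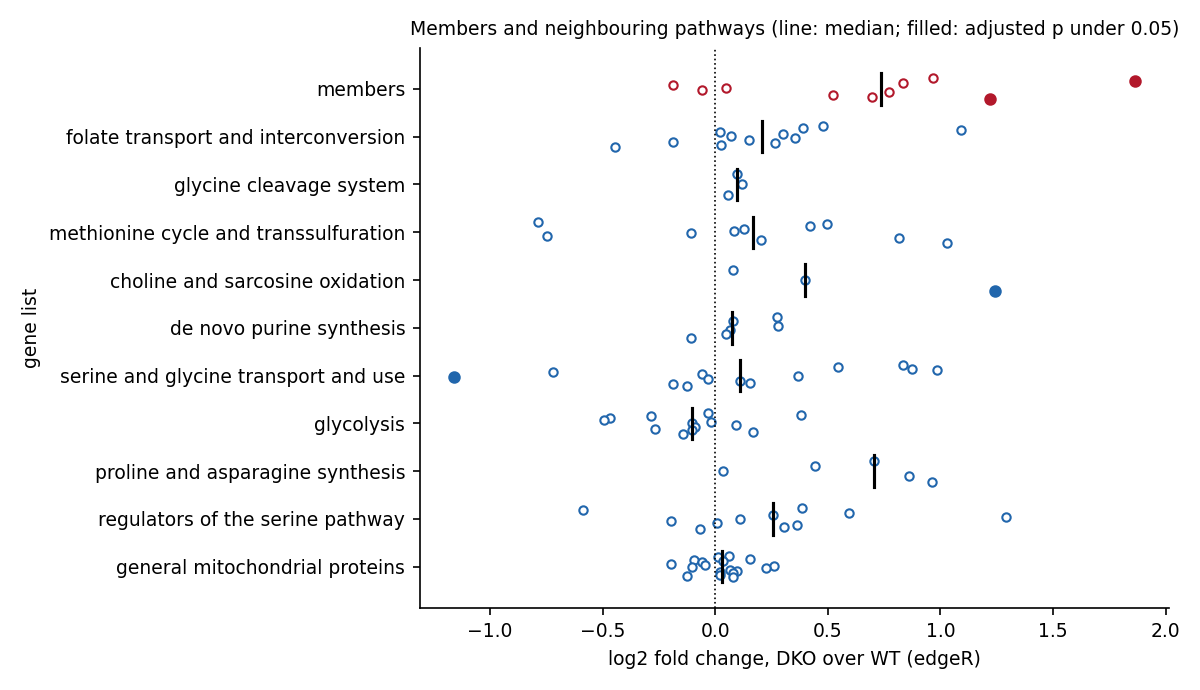
Each point is the log2 fold change of DKO over WT (horizontal axis) of a tested gene, for the 10 members (red) and for 10 lists of neighbouring genes (blue), with the list median as a black line. Filled points have an adjusted p under 0.05: Psat1 and Aldh1l2 among the members, Sardh above 0 and Sfxn3 below 0 among the neighbours. The median is 0.70 for proline and asparagine synthesis and 0.03 for general mitochondrial proteins.

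Across the transcriptome, genes with levels most like Psat1 and Shmt2 were sought among 7899 genes with a mean of at least 5 CPM, by Pearson's correlation of log2 CPM over the 9 libraries. For Psat1 they were Slc7a5 (r = 0.974), Creb3l4 (0.972), Slc1a5 (0.970), Uox (0.970) and Ppp2r5d (0.967). For Shmt2 they were Vps41 (r = 0.983), Slc6a9 (0.983), Dhrs7 (0.980), Rhbdd3 (0.975) and Hdac10 (0.973). Slc7a5, Slc1a5 and Slc6a9 encode plasma membrane transporters of large neutral amino acids, of small neutral amino acids and of glycine. After each genotype was centred on its own mean the coefficients of these 10 genes lay between 0.906 and 0.974, which the choice of the highest coefficients over the same libraries largely fixes. The points share library depth and composition, and the coefficients are given as a description.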

How the data were processed

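RNA was isolated from SMGs of male mice and sequenced from Nextera XT libraries, a kit that does not mark strand. The submitters' processing notes name STAR 2.5.2a, DESeq2, edgeR and limma, with the builds GRCm38, mm10 and GRCh38, without saying which step used which. The authors deposited a raw count table (48733 rows, of which 17 are transgenes and 7 are other non-gene rows), a filtered count table (17562 rows, all 158058 values equal to the raw counts) and a table of signal values, which the authors made by dividing the filtered counts by TMM-scaled library sizes. All signal values (100%) gave back whole reads within 0.001 reads, so tests used the raw counts.

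The 4 WT and 5 DKO libraries were grouped by their labels. Genes were kept by filterByExpr (minimum count 10, minimum total 15), scaled by TMM and tested for genotype by edgeR 4.0.16 (quasi-likelihood F test; common biological coefficient of variation 0.235) in R 4.3.3, with Benjamini-Hochberg adjustment over 13842 genes and a threshold of 0.05. Intervals use t with 7 residual plus 4.71 prior degrees of freedom. Alternatives were DESeq2 1.42.0, limma-voom 3.58.1 with quality weights, other scalings and filters, a replicate block, and leaving out each library. Another was a term for the range of the number ending each sample title (title number), whose meaning the labels do not give. Leaving out libraries in DESeq2 and fitting the shared replicate numbers without a block were added after seeing the data. Pair ratios used counts plus 0.5 and an exact permutation test (scipy 1.17.1). On simulated data with 200 changed genes edgeR found 55 of 98 genes changed 2-fold and 92 of 102 changed 4-fold, with 15 false among 162 calls. Each simulated gene varied independently, without shifts shared by the genes of a library, so these rates may not hold for the real libraries. Positions and exon lengths are from GENCODE M21 (GRCm38). RefSeq promoters were available for 9 of the 10 genes, and Aldh1l2 was not matched.

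The members and gene lists were chosen with earlier results of these data known. Named genes were all members, called pathway genes, and per list the 2 with the largest log2 difference at a mean of at least 1 CPM. Precision at each gene is limited by its counts and by 4 and 5 glands.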

Additional observations from a re-analysis of the deposited data

Results flagged for a closer look

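One value was far from the rest of its group among the 26 groups of 4 or 5 libraries examined. The log2 ratio of Aldh1l2 to Aldh1l1 counts was -2.75 in WT replicate 3, against -1.71, -1.60 and -1.62 in WT replicates 1, 2 and 4. That library had both the lowest Aldh1l2 level (5.03 CPM) and the highest Aldh1l1 level (33.8 CPM) of the WT libraries. Chance sets apart about 1 in 20 groups by this measure. Without WT replicate 3 the difference between genotypes in this ratio was 1.01 log2 units. The exact permutation p was 0.0357, the smallest the remaining libraries allow.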

How the results depend on the processing

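Psat1 and Aldh1l2 kept their direction in all 27 alternatives run, with log2 fold changes of 1.63 to 2.11 and 1.06 to 1.39, but their edgeR calls lay just under the threshold. The number of members called was 2 in the reported fit. It was 0 with library sizes computed without the 20 most abundant genes, 0 on the authors' filtered table, 1 by limma-voom and 5 by DESeq2 or with no filter on low counts. It ranged from 0 to 5 when single libraries were left out (3 without WT replicate 2, 5 without DKO replicate 4 and 0 without any other), and from 3 to 6 when they were left out in DESeq2. Over all tested genes 87 were called, against 5 without the most abundant genes in the library size and 13 on the filtered table. The count was 148 by limma-voom, 616 by DESeq2, 347 with no filter and 332 with the title number range as a term. It was 0 to 441 without single libraries (at least 1348 at an unadjusted p under 0.05 in each). In DESeq2 it was 266, 815, 303 and 475 without WT replicates 1 to 4. Without DKO replicates 1 to 5 DESeq2 called 586, 468, 511, 887 and 512. For pathway genes outside the members the 2 calls became 0 without the most abundant genes and 0 on the filtered table. They became 7 with no filter, 6 with the title number range, 13 by DESeq2 and 0 to 11 without single libraries. The cause of these shifts was not tested.

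Without single libraries the Mthfd1 log2 difference ran from -0.043 to 0.153 and that of Aldh1l1 from -0.159 to 0.041. Mthfd1 changed sign without WT replicate 1 (-0.0063 in edgeR, -0.0015 in DESeq2) and without DKO replicate 3 (-0.0435 and -0.0430), and Aldh1l1 without WT replicate 3 (0.0406 and 0.0448) and without DKO replicate 4 (0.0080 and 0.0119). Without single libraries the Shmt2 to Shmt1 difference was 0.84 to 1.11, the Mthfd1l to Mthfd1 difference 0.54 to 0.92 and the Aldh1l2 to Aldh1l1 difference 1.01 to 1.39.

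Deviations of libraries with the same replicate number correlated at 0.245, 0.369, 0.113 and 0.0063 for numbers 1 to 4, and 2 of 4 WT libraries correlated best with their own number, so the numbers were not taken to pair the glands. With the replicate block edgeR called 0 members, 0 pathway genes and 0 genes in all (2024 at an unadjusted p under 0.05), and the same 8 libraries without the block also gave 0 members and 0 genes (1762 unadjusted). In the block the Shmt2 to Shmt1 difference was 0.88 and the Aldh1l2 to Aldh1l1 difference 1.36, each with an exact permutation p of 0.125, the smallest that 4 pairs allow. Precision for Mthfd1l is limited by its counts (6 to 30 per library) and by the number of glands.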
